A study of Homo sapiens with 6 samples.

Results

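The zinc finger (ZNF) genes of chromosome 19 that lie outside the interval from 52 to 54 Mb were compared between AC16 cells given doxorubicin and AC16 cells given solvent. Genes were included when they were protein-coding, carried a symbol made of ZNF and a number, and began below that interval or above it. The rule used names and positions and took 208 of the 58299 genes listed. It was set with earlier results of these data known, so it was not blind to the measured values. AC16 is a human line derived in part from ventricular cardiomyocytes. One group of 3 libraries received 0.1% DMSO and the other group of 3 received 100 nM doxorubicin, an anthracycline that traps type II topoisomerases on DNA, each for 48 h. No genetic change is named for either group. Since nothing in the labels states that replicate libraries were separate cultures, p-values reflect the spread among these 6 samples alone, and that spread may be technical.

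Most ZNF proteins bind DNA through a row of C2H2 fingers. Many also carry a KRAB domain, which recruits the scaffold protein TRIM28 (KAP1) and, through it, the histone methyltransferase SETDB1, which lays down H3K9me3 on chromatin, often at transposable elements. The human KRAB zinc finger genes arose largely by tandem duplication and sit in dense clusters on chromosome 19, which are themselves covered by H3K9me3 in many cell types.

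The libraries held 17252862 to 19571731 counts each. Levels are given as CPM, the count relative to the library total scaled by the TMM factors of edgeR, and calls are at an adjusted p under 0.05 over the 15358 genes tested. The cells were checked against fixed marker lists. All 10 fibroblast markers were tested, with a summed level of 15852 to 18148 CPM in DMSO and 5589 to 8261 CPM in doxorubicin. COL1A1 was the largest part of that sum, with a mean of 9864 CPM in DMSO and 3156 CPM in doxorubicin, and the markers went both ways, with 6 called lower, POSTN called higher, and FAP, DCN and LUM not called. None of 10 cardiomyocyte markers reached the expression filter. Their summed level was 0.312 to 0.442 CPM in DMSO and 1.06 to 1.99 CPM in doxorubicin, and none was at 0 in all libraries. Endothelial markers summed to 2.12 to 2.66 and 3.08 to 4.49 CPM, and leukocyte markers to 0.782 to 1.71 and 1.59 to 2.41 CPM. The part of these marker shifts in the ZNF results was not tested. In bulk RNA, fewer cells of a type and less RNA per cell cannot be told apart.

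Promoters of 3 pairs of genes from the same clusters are printed here, to set their sequences beside their values. The sequences are RefSeq windows of the 250 bases before the start (GRCh38.p14), read 5′ to 3′ on the gene's strand. Bases inside an annotated exon or the counted gene are left out. Capitals mark CCAAT on either strand, a box common in housekeeping promoters. ZNF441 (chr19:11766750-11766999, plus strand) and ZNF563 (chr19:12333721-12333883, minus strand) are shown because they had the largest increases of the cluster at chr19:11483427-12640098. ZNF93 (chr19:19900696-19900912, plus strand) and ZNF91 (chr19:23395561-23395721, minus strand) lie in the cluster at chr19:19668796-24129961 and encode known repressors of retrotransposons. ZNF561 (chr19:9621400-9621482, minus strand) and ZNF562 (chr19:9675101-9675350, minus strand) are the neighbouring genes of the cluster at chr19:7069444-9793180 with fold changes of 3.55 and 1.21.
ZNF441: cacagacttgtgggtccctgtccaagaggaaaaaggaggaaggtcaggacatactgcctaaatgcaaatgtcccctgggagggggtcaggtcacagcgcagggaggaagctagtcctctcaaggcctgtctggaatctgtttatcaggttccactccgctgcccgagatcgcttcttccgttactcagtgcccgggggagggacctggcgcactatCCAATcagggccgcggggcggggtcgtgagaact
ZNF563: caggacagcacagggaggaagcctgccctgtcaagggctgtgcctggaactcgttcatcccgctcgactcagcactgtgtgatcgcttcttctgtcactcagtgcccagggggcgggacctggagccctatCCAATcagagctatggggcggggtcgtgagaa
ZNF93: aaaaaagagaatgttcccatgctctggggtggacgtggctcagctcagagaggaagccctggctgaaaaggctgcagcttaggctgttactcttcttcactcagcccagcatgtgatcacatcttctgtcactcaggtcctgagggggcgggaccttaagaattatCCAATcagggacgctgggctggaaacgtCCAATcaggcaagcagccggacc
ZNF91: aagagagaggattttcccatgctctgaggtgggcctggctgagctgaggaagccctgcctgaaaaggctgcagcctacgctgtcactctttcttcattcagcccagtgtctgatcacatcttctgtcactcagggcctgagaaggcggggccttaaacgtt
ZNF561: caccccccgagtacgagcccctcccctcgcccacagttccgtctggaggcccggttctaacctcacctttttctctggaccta
ZNF562: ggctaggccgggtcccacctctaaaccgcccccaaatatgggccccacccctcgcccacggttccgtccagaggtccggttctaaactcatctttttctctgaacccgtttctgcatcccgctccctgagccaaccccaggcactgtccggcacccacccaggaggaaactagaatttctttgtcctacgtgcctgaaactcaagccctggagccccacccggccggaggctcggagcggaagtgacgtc

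The full windows of ZNF93 and ZNF91 were identical at 211 of 246 aligned bases (85.8%), and those of ZNF561 and ZNF562 at 190 of 224 (84.8%). The windows of ZNF441 and ZNF563 were identical at 125 of 231 (54.1%). Pairs from different clusters were identical at 49.2% (ZNF561 and ZNF441), 52.8% (ZNF561 and ZNF93) and 68.9% (ZNF441 and ZNF93). These percentages leave out gap bases, which ran from 8 (ZNF93 and ZNF91) to 108 (ZNF441 and ZNF93), and depend on where each window starts. The ZNF563 window reaches into the counted gene, down to base 12333634, and that of ZNF441 stops before its gene. The 54.1% is thus not a measure of likeness in the printed bases, which share runs of letters near their ends. ZNF441, ZNF563 and ZNF93 share the run TATCCAATCAG around a CCAAT box. The full window of ZNF91 also holds CCAAT, in bases not printed here, but lacks this run. This run, the longest around CCAAT that the 3 windows share, was picked out after the letters were seen and was then searched on both strands, where it always overlaps the shorter CCAAT motif. It stood in 21 of the 183 genes of the set with a RefSeq window (11.5%) and in 47 of all 27305 windows (0.172%), the 21 included. Of the 21, 6 belonged to the cluster of ZNF441 and ZNF563 and 14 to the cluster of ZNF93 and ZNF91. The run was found in 13.9% of the 72 windows of genes called higher, in 11.1% of the 9 windows of genes called lower and in 9.52% of the 84 windows of genes not called. The 3 windows that defined the run hold it by construction. All 3 belong to genes called higher and are counted among the 10 matches in the 72 windows, so these shares cannot link the run to the calls. CCAAT itself was in 54.6% of the set's windows against 33.0% of all windows, TATAA (any overlap allowed) in 5.46% against 19.6%, and a single decamer of the p53 response element in 6.56% against 5.53%, each searched on both strands. CCAAT was unevenly spread over the clusters, numbered as below. It was in 5 of 5 windows of cluster 1, 22 of 24 of cluster 3, 29 of 29 of cluster 4 and 29 of 52 of cluster 9. In cluster 2 it was in 4 of 14, in cluster 5 in 2 of 4 and in cluster 6 in 2 of 23. Cluster 7 had it in 4 of 20, cluster 8 in 2 of 5 and the isolated genes in 1 of 7. The p53 decamer was in 4.17% of windows of genes called higher and 8.33% of those not called. These matches are letters in a window and not measured binding.

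Of the 208 genes, 182 passed the expression filter and 26 did not. After doxorubicin, 82 of the 182 rose (45.1%), 10 fell (5.49%) and 90 were not called. Over all tested genes, 32.7% were called higher and 32.0% lower. Changes of at least 2-fold were called higher for 26 of the 182 genes, a share close to the 14.2% of all tested genes. They were called lower for 1 of the 182, beside 6.26% of all tested genes. The median log2 fold change of the 182 genes was 0.33, with quartiles at -0.02 and 0.77, and the median over all tested genes was -0.0013. The log2 fold change was above 0 for 133 of the 182 genes and for 49.9% of all tested genes. The CPM of the 3 doxorubicin libraries lay wholly above those of DMSO for 88 genes and wholly below for 13, where 34.8% and 34.3% of all tested genes did so. ZNF563 and ZNF540 had fewer than 10 counts in every DMSO library and passed the filter through the doxorubicin group. Without these 2 genes the counts were 80 higher and 10 lower of 180, with 24 of the 80 higher by at least 2-fold. DESeq2 called 63 genes of the set higher, ZNF541 among them from below the filter, and 6 lower. DESeq2 and edgeR without a filter fitted 34828 genes, most of them low, and there the set's median (0.32 and 0.30) lay below the median of all genes (0.40 and 0.37). Over the 15358 genes of the filtered test alone, a comparison added after the data were seen, the same fits gave 0.32 and 0.30 for the 182 genes and -0.01 and -0.03 for all genes.

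The summed level of all 208 genes was 1394.5, 1363.5 and 1426.2 CPM in the DMSO libraries and 1736.7, 1723.3 and 1702.8 CPM in the doxorubicin libraries. The groups did not overlap. The set took 0.139, 0.134 and 0.139% of all counts in DMSO and 0.177, 0.175 and 0.171% in doxorubicin. The median tested gene of the set stood at 3.60, 3.54 and 3.48 CPM in DMSO and 5.00, 5.33 and 5.29 CPM in doxorubicin. Most of these genes are thus read at a few CPM, and 196 to 199 of the 208 had at least 1 count in a given library.

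A KRAB sequence was found in the translated transcripts of 173 genes and not in those of 35. Of 152 tested genes with KRAB, 73 rose (48.0%), 5 fell and the median log2 fold change was 0.37. Of 30 tested genes without KRAB, 9 rose, 5 fell and the median was 0.08. The summed level with KRAB was 767.0, 740.4 and 744.8 CPM in DMSO and 1050.6, 1065.4 and 1019.0 CPM in doxorubicin, with no overlap. Without KRAB it was 627.5, 623.1 and 681.4 CPM in DMSO and 686.1, 658.0 and 683.8 CPM in doxorubicin, and these groups overlapped. The difference between genes with and without KRAB was not tested.

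**Figure D1:**
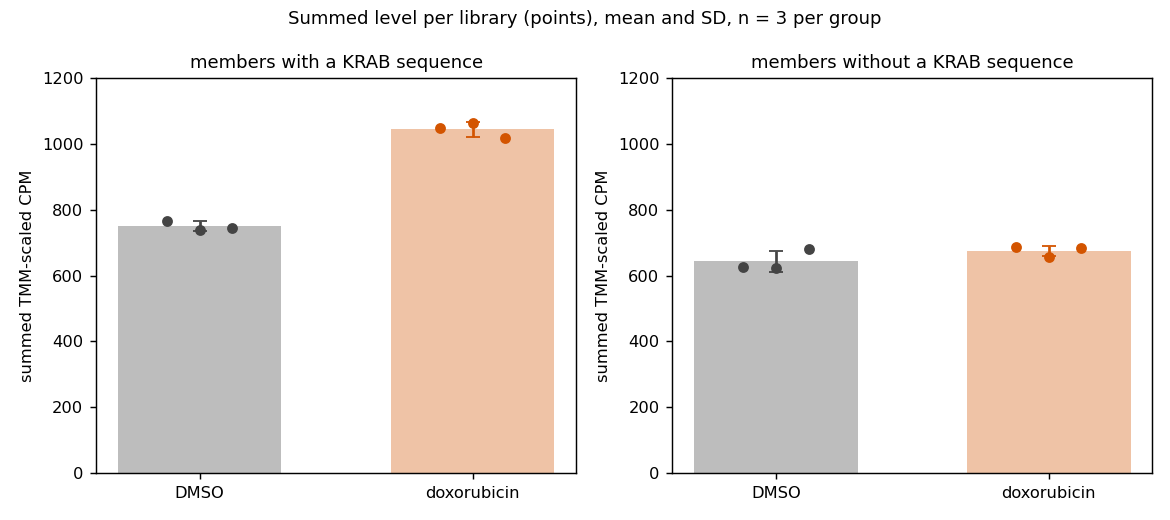
Summed TMM-scaled CPM of the genes with a KRAB sequence (left) and without one (right) in each library (points), with the mean (bars) and SD (error bars) of 3 libraries per group. With KRAB, the doxorubicin libraries sit between 1019.0 and 1065.4 CPM, above the highest DMSO library at 767.0 CPM, and without KRAB the groups overlap.

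Other groups of genes in the same fit gave different shares. Of 30 tested ZNF genes inside 52 to 54 Mb, 25 were called higher (83.3%) and 0 lower by edgeR, with 0 lower at an unadjusted p under 0.05 and 0 lower by DESeq2. Their median log2 fold change was 1.02. Of 198 tested ZNF genes on the other autosomes, 74 were called higher (37.4%) and 40 lower (20.2%), with a median of 0.12. Of 716 other protein-coding genes tested on chromosome 19, 219 were called higher (30.6%) and 290 lower (40.5%), with a median of -0.09. Protein-coding genes without a ZNF symbol that lie between members of the ZNF clusters had 22 called higher and 23 lower of 69 tested. These genes and the other genes of chromosome 19 were taken by symbol, so zinc finger genes with other names are not kept out. The differences between these groups of genes were not tested, and the 52 to 54 Mb interval was set with earlier results of these data known.

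**Figure D2:**
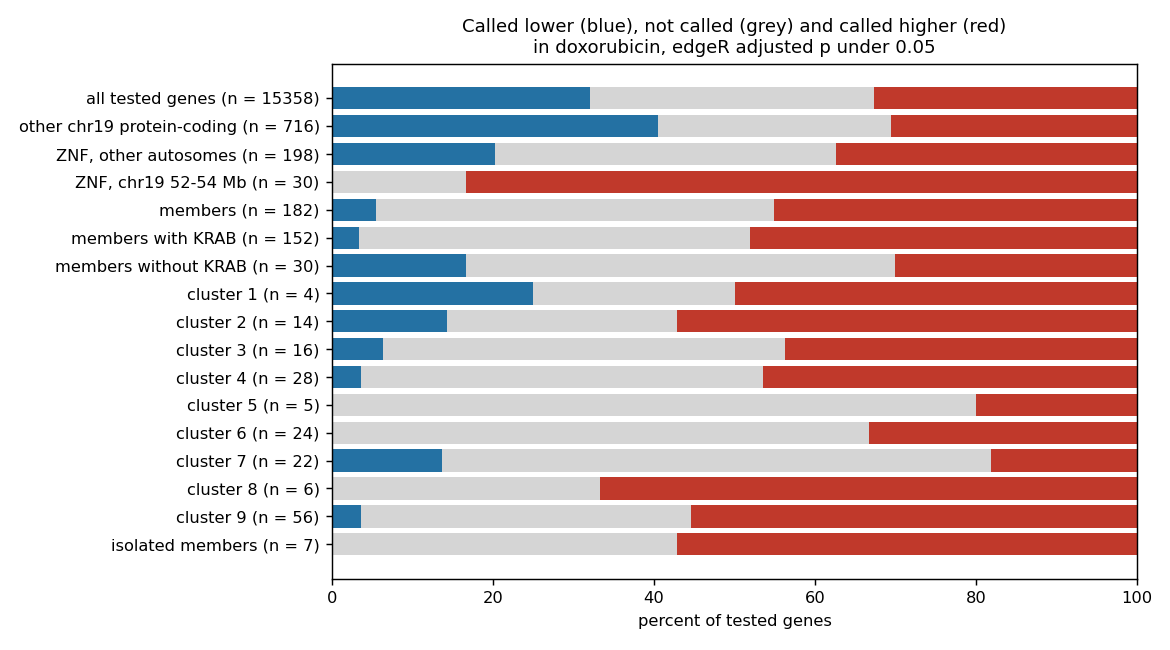
Percent of tested genes called lower (blue), not called (grey) and called higher (red) in doxorubicin by edgeR at an adjusted p under 0.05, for all tested genes, comparison groups, the genes of the set with and without KRAB, and each position cluster. The set has 45.1% called higher and 5.49% lower, against 32.7% and 32.0% of all tested genes.

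The genes form 9 position clusters, taken as runs of at least 3 genes whose neighbouring starts lie within 1 Mb, plus 9 isolated genes. Clusters are numbered from the short arm end to the long arm end. In this fit, calls higher outnumbered calls lower in each of the 9 clusters, by only 4 to 3 in cluster 7 and 1 to 0 in cluster 5. Not every cluster had more calls higher than the 32.7% of all tested genes. The share called higher was 33.3% in cluster 6, 18.2% in cluster 7 and 1 of 5 tested genes in cluster 5. It ran from 43.8% (cluster 3) to 66.7% (cluster 8) in the other clusters. The share called lower was under the 32.0% of all tested genes in each cluster. Cluster 7 had 3 higher and 3 lower with DESeq2, with a gap of 0.5 Mb or without DMSO replicate 2 or 3, and 3 higher and 4 lower without doxorubicin replicate 2. Cluster 5 had 1 and 1 without doxorubicin replicate 3. The median log2 fold change was 0.55 in cluster 8, 0.53 in cluster 3, 0.50 in cluster 4, 0.44 in cluster 1, 0.41 in cluster 9, 0.35 in cluster 2, 0.13 in cluster 6, 0.04 in cluster 7 and 0.006 in cluster 5. The median of cluster 7 turned negative with DESeq2 (-0.10) and without a filter (-0.12), and that of cluster 5 did so too (-0.0039 and -0.024). The median of cluster 1 rested on 4 genes, was 0.90 with DESeq2, and was 0.22 without doxorubicin replicate 2. Differences between clusters were not tested.

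**Figure D3:**
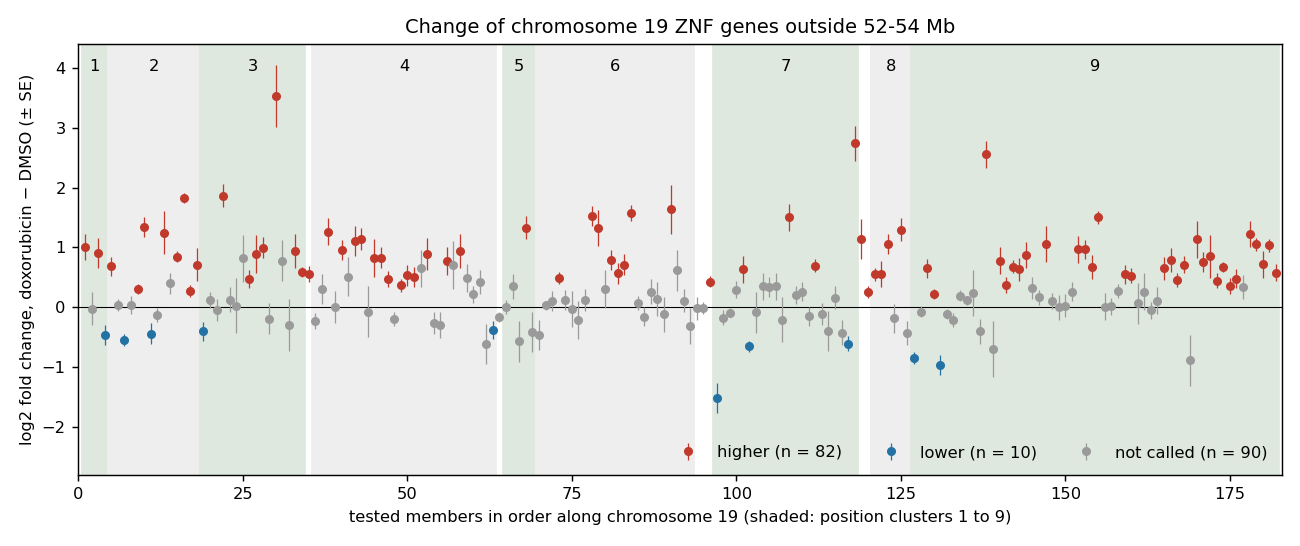
Log2 fold change (doxorubicin minus DMSO) with its SE for the 182 tested genes in their order along chromosome 19, with position clusters 1 to 9 shaded and calls in red (82 higher), blue (10 lower) and grey (90 not called). The highest point is ZNF563 at 3.54 in cluster 3 and the lowest is ZNF575 at -1.52 in cluster 7.

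Clusters 1 and 2 lie on the short arm. In cluster 1 (chr19:2819874-2944971), 4 of 5 genes were tested, 2 rose and 1 fell. ZNF554 stood at 1.34, 1.46 and 1.38 CPM in DMSO and 2.73, 2.85 and 2.85 CPM in doxorubicin. The groups did not overlap, and the gene rose 2.01-fold (edgeR adjusted p = 0.00084). ZNF57 rose 1.88-fold and ZNF77 fell 1.38-fold. In cluster 2 (chr19:7069444-9793180), 8 of 14 tested genes rose and 2 fell, and the summed level went from 176.5, 173.3 and 181.0 CPM to 247.2, 245.6 and 232.1 CPM without overlap. Protein-coding genes without a ZNF symbol inside this cluster had 7 called higher and 8 lower of 25 tested.

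ZNF561 (ENSG00000171469, chr19:9604680-9621399) was the most changed gene of cluster 2. It stood at 13.6, 14.3 and 12.8 CPM in DMSO and just over 50, 48.1 and 46.6 CPM in doxorubicin. All 3 doxorubicin libraries were more than 3 times as high as any DMSO library. The mean went from 13.6 ± 0.755 to 48.2 ± 1.72 CPM (SD, n = 3), a log2 fold change of 1.83 ± 0.08 (SE, edgeR adjusted p = 2.1e-11). Its neighbour ZNF562 (chr19:9641808-9675086), named here after its values were seen, stood at 15.6, 17.4 and 16.2 CPM in DMSO and 19.3, 20.9 and 19.4 CPM in doxorubicin. The groups did not overlap either, but ZNF562 rose only 1.21-fold (edgeR adjusted p = 0.019), a call that was lost with DESeq2 (adjusted p = 0.082). The genes share 84.8% of aligned promoter bases, as printed above, and similar DMSO levels. Whether their changes differ was not tested. Exons of the opposite-strand ZNF561-AS1 cover 18.9% of the ZNF562 exons, and in unstranded libraries these reads cannot be told apart. Further increases in cluster 2 were those of ZNF699 (2.53-fold), ZNF560 (2.37-fold), ZNF121 (1.80-fold), ZNF846 (1.64-fold), ZNF557 (1.61-fold) and ZNF317 (1.23-fold).

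ZNF414 was among the 2 genes of cluster 2 that fell. It stood at 17.3, 16.7 and 18.7 CPM in DMSO and 11.6, 12.4 and 12.1 CPM in doxorubicin, with no overlap. The decrease was 1.46-fold (edgeR adjusted p = 0.00019), and that of ZNF559 was 1.36-fold. ZNF358, which had one of the highest levels of the set per length at 17.2 CPM per kb of exon, stood at 34.5, 30.5 and 40.4 CPM in DMSO and 37.0, 37.8 and 33.5 CPM in doxorubicin. Its groups overlapped and it was not called (edgeR adjusted p = 0.73).

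Cluster 3 (chr19:11483427-12640098) held 25 genes, of which only 16 were tested, since 9 were below the filter. Of the 16, 7 rose and 1 fell. ZNF441 (chr19:11767000-11784078) stood at 5.48, 3.75 and 2.82 CPM in DMSO and 16.6, 14.1 and 13.1 CPM in doxorubicin. The lowest doxorubicin library was above the highest DMSO library, and the gene rose 3.64-fold, a log2 fold change of 1.86 ± 0.19 (SE, edgeR adjusted p = 6.8e-07). ZNF563 (chr19:12317477-12333720) stood at 0.279, 0.104 and 0.0552 CPM in DMSO and 2.61, 1.11 and 1.57 CPM in doxorubicin. These levels rest on 8 counts in all DMSO libraries and 95 in all doxorubicin libraries. The fitted log2 fold change was 3.54 ± 0.52 (SE, edgeR adjusted p = 1.7e-05), the largest of the 182 genes. ZNF563 fell outside the rule for named genes and was named after its values were seen. ZNF136 (1.99-fold), ZNF490 (1.92-fold), ZNF844 (1.86-fold), ZNF791 (1.50-fold) and ZNF700 (1.38-fold) also rose, and ZNF653, which carries no KRAB sequence, fell 1.32-fold.

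Cluster 4 (chr19:19668796-24129961) is the block next to the centromere that is rich in primate-specific KRAB genes. It held 37 genes, 28 of them tested, of which 13 rose and 1 fell. ZNF506 stood at 2.01, 2.34 and 3.04 CPM in DMSO and 4.03, 7.28 and 6.44 CPM in doxorubicin. The groups did not overlap, and it rose 2.40-fold (edgeR adjusted p = 0.00017), the largest called fold in the cluster. ZNF486 rose 2.19-fold, ZNF90 2.15-fold, ZNF724 1.92-fold and ZNF429 1.86-fold. The smallest increases were those of ZNF430 (1.39-fold) and ZNF431 (1.29-fold). ZNF254 fell 1.31-fold.

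ZNF93 and ZNF91, both in cluster 4, are KRAB proteins that repress LINE-1 and SVA retrotransposons. ZNF93 stood at 5.76, 4.84 and 3.42 CPM in DMSO and 8.52, 8.81 and 9.85 CPM in doxorubicin, so the groups did not overlap. It rose 1.94-fold, a log2 fold change of 0.95 ± 0.17 (SE, edgeR adjusted p = 0.00013). ZNF91 stood at 2.46, 2.14 and 1.99 CPM in DMSO and 2.39, 3.80 and 3.02 CPM in doxorubicin. Doxorubicin replicate 1 lay inside the DMSO range, and ZNF91 was not called, with a log2 fold change of 0.49 ± 0.23 (SE, edgeR adjusted p = 0.071). Without that library it was 0.64 and was called (adjusted p = 0.0206). Whether ZNF93 and ZNF91 differ in their response was not tested.

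Of the 26 genes below the filter, 9 lay in cluster 3 and 9 in cluster 4. ZNF729, ZNF98, ZNF99 and ZNF723 of cluster 4, and ZNF835 of cluster 9, had 0 counts in all 6 libraries, which allows a level of up to 0.0535 CPM in DMSO (3 counts over the group, counting error only). ZNF208, a neighbour of these genes, was read with 1 count over the DMSO group and 15 over the doxorubicin group. The isolated ZNF541 had 1 and 22, and the isolated ZNF536, a regulator of neuronal differentiation, had 0 and 9. These 3 genes were below the filter of the main test. In edgeR without a filter they were called higher (adjusted p = 0.0090 for ZNF208, 0.00043 for ZNF541 and 0.019 for ZNF536), and with DESeq2 ZNF541 was called (adjusted p = 0.011) while ZNF208 (0.051) and ZNF536 (0.083) were not.

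Clusters 5 and 6 lie on the proximal long arm and had small median shifts, and no gene was called lower by edgeR in either. At an unadjusted p under 0.05 and by DESeq2, 0 genes were lower in both clusters. In cluster 5 (chr19:34677639-34964049), only ZNF30 of 5 tested genes rose. It stood at 2.85, 2.34 and 4.09 CPM in DMSO and 7.05, 8.60 and 7.67 CPM in doxorubicin, without overlap and 2.52-fold higher (edgeR adjusted p = 1.4e-05). In cluster 6 (chr19:36182060-37817300), 8 of 24 tested genes rose. ZNF383 stood at 4.58, 4.27 and 4.69 CPM in DMSO and 12.2, 13.5 and 14.6 CPM in doxorubicin. The DMSO values were tight and well below, and it rose 2.97-fold, a log2 fold change of 1.57 ± 0.13 (SE, edgeR adjusted p = 3.6e-08). ZNF850 stood at 4.69, 3.49 and 4.64 CPM in DMSO and 13.9, 13.0 and 10.0 CPM in doxorubicin and rose 2.88-fold (edgeR adjusted p = 5.2e-07). Its groups did not overlap. ZNF540, named after its values were seen, stood at 0.503, 0.208 and 0.276 CPM in DMSO and 1.19, 0.897 and 1.01 CPM in doxorubicin, from 18 and 56 counts in all (3.11-fold higher, edgeR adjusted p = 0.0021).

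Several genes of cluster 6 with described functions moved less. ZNF420 (APAK) is a KRAB protein known as a negative regulator of p53, the main transcription factor of the DNA damage response. It stood at 3.35, 3.59 and 4.03 CPM in DMSO and 4.77, 6.65 and 6.55 CPM in doxorubicin and rose 1.64-fold (edgeR adjusted p = 0.0024), with no overlap. ZNF260, which cooperates with GATA4 at cardiac promoters in rodents, stood at 19.8, 17.0 and 18.7 CPM in DMSO and 23.7, 27.8 and 26.5 CPM in doxorubicin. It rose 1.40-fold (edgeR adjusted p = 0.00031), again with no overlap. ZNF568, whose mouse counterpart represses a placental Igf2 transcript, stood at 3.52, 3.75 and 3.26 CPM in DMSO and 5.40, 4.38 and 5.88 CPM in doxorubicin. Its groups did not overlap, but its 1.48-fold increase (edgeR adjusted p = 0.0099) was lost with DESeq2 (adjusted p = 0.052).

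Neighbouring genes of cluster 6 did not all pass the test. ZNF146 (OZF), a protein made almost wholly of zinc fingers, had the highest mean level of the set before scaling by length. It stood at 68.8, 69.7 and 72.5 CPM in DMSO and 64.8, 75.7 and 75.1 CPM in doxorubicin, with overlap, and was not called (edgeR adjusted p = 0.73). ZNF382, a KRAB protein described as a tumour suppressor, stood at 0.950, 1.25 and 1.27 CPM in DMSO and 0.852, 1.21 and 1.34 CPM in doxorubicin. The groups overlapped fully and it was not called (edgeR adjusted p = 0.95).

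Cluster 7 (chr19:43525497-45076588) held the strongest decrease and one of the strongest increases of the set. Of 22 tested genes, 4 rose and 3 fell, and the summed level was 147.8, 148.2 and 150.4 CPM in DMSO and 143.0, 149.1 and 149.6 CPM in doxorubicin. The groups overlapped. ZNF575 stood at 2.74, 2.55 and 3.31 CPM in DMSO and 0.909, 0.950 and 1.12 CPM in doxorubicin. It fell 2.87-fold without overlap, a log2 fold change of -1.52 ± 0.25 (SE, edgeR adjusted p = 5.2e-05), and was the only gene of the set called lower by at least 2-fold. Exons of other genes overlap 7.39% of the ZNF575 exon bases. The opposite-strand ETHE1 overlaps the most of them and had 2117 counts in all, against 212 for ZNF575. The part of this overlap in the decrease was not tested. At the other end of the cluster, ZNF296 stood at 0.894, 0.521 and 0.331 CPM in DMSO and 3.64, 4.12 and 3.97 CPM in doxorubicin. It rose 6.67-fold without overlap, a log2 fold change of 2.74 ± 0.29 (SE, edgeR adjusted p = 4.4e-07). Neither gene carries a KRAB sequence in the transcripts searched.

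ZNF45 of cluster 7 stood at 21.5, 21.2 and 20.7 CPM in DMSO and 12.4, 14.1 and 13.7 CPM in doxorubicin. It fell 1.58-fold with no overlap (edgeR adjusted p = 1.7e-05). ZNF180 stood at 13.4, 12.9 and 10.3 CPM in DMSO and 8.07, 8.44 and 7.55 CPM in doxorubicin and fell 1.52-fold (edgeR adjusted p = 0.00073), also with no overlap. ZNF284 (2.83-fold), ZNF226 (1.62-fold) and ZNF404 (1.55-fold) rose. ZNF224, a KRAB repressor first described at the aldolase A gene, stood at 5.53, 6.61 and 6.13 CPM in DMSO and 7.27, 7.55 and 6.21 CPM in doxorubicin. Its groups overlapped, it was not called (edgeR adjusted p = 0.24), and 40.5% of its exon bases overlap ZNF225-AS1. ZNF428, which had the highest level per length at 19.6 CPM per kb, stood at 35.1, 36.5 and 37.4 CPM in DMSO and 36.2, 32.7 and 33.6 CPM in doxorubicin. It was not called (edgeR adjusted p = 0.33), its groups overlapped, and 27.6% of its exon bases overlap another gene.

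Cluster 8 (chr19:51571298-52008230) ends at the border of the 52 to 54 Mb interval. Of its 6 genes, all tested, 4 rose and 0 were called lower by edgeR, with 0 lower at an unadjusted p under 0.05 and by DESeq2. ZNF350 (ZBRK1), a KRAB repressor that binds BRCA1 and acts on DNA damage genes, stood at 2.74, 2.40 and 2.26 CPM in DMSO and 7.33, 4.85 and 6.04 CPM in doxorubicin. The groups did not overlap, and it rose 2.46-fold, a log2 fold change of 1.30 ± 0.20 (SE, edgeR adjusted p = 2.4e-05). ZNF175 (OTK18), described as a repressor of HIV-1 transcription, stood at 10.3, 12.7 and 10.7 CPM in DMSO and 15.4, 17.4 and 16.6 CPM in doxorubicin. It rose 1.46-fold without overlap (edgeR adjusted p = 0.00047). ZNF649 rose 2.08-fold and ZNF577 1.47-fold.

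ZNF615 is the last gene of cluster 8 before the interval. It stood at 3.02, 3.85 and 3.15 CPM in DMSO and 2.84, 2.27 and 2.35 CPM in doxorubicin. The doxorubicin libraries were all lower, but it was not called (log2 fold change -0.43, edgeR adjusted p = 0.077), except when doxorubicin replicate 1 was left out (adjusted p = 0.0479). Just inside the interval, ZNF614 (-0.15) and ZNF432 (0.09) were not called, and at its far border ZNF813 (0.67) and ZNF331 (0.64) were called higher on the same log2 scale. Just beyond that border, ZNF628 was called lower and ZNF579 was not called (-0.07).

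Cluster 9 (chr19:55476332-58481230), at the end of the long arm, is the largest, with 57 genes and 56 tested. In it 31 genes rose and 2 fell, and the summed level went from 532.6, 531.6 and 560.7 CPM to 696.9, 665.3 and 670.9 CPM without overlap. Genes with KRAB accounted for 26 of the increases among 42 tested. Genes without KRAB gave 5 increases and both decreases among 14 tested. Protein-coding genes without a ZNF symbol inside the cluster had 5 called higher and 6 lower of 17 tested.

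ZNF667, the human counterpart of the rat gene Mipu1 that is induced by myocardial ischaemia, had the largest increase in cluster 9. It stood at 1.79, 1.25 and 0.994 CPM in DMSO and 9.03, 6.33 and 8.39 CPM in doxorubicin. Each doxorubicin library was more than 3 times as high as each DMSO library, and the gene rose 5.87-fold, a log2 fold change of 2.55 ± 0.23 (SE, edgeR adjusted p = 5.2e-08). The opposite-strand ZNF667-AS1 covers 1.5% of its exon bases. ZNF274 binds the 3′ ends of ZNF genes and recruits SETDB1 there. It stood at 27.9, 28.3 and 28.9 CPM in DMSO and 43.1, 48.5 and 44.3 CPM in doxorubicin, with no overlap. ZNF274 rose 1.60-fold, a log2 fold change of 0.68 ± 0.08 (SE, edgeR adjusted p = 1.2e-06).

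Other increases in cluster 9 were spread over its whole length. They reached 2.84-fold for ZNF550, 2.34-fold for ZNF837, 2.19-fold for ZNF256, 2.08-fold for ZNF547, 2.07-fold for ZNF584 and 2.05-fold for ZNF324. The smallest were those of ZNF71 (1.29-fold), ZNF544 (1.28-fold) and ZNF865 (1.16-fold). Both decreases lay at the centromeric edge and in genes without KRAB. ZNF628 stood at 23.6, 22.5 and 23.9 CPM in DMSO and 13.9, 12.2 and 12.8 CPM in doxorubicin and fell 1.80-fold (edgeR adjusted p = 9.5e-07). ZNF784 stood at 7.32, 9.69 and 10.0 CPM in DMSO and 5.23, 4.01 and 4.64 CPM in doxorubicin and fell 1.95-fold (edgeR adjusted p = 7.6e-05). Neither gene's groups overlapped.

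**Figure D4:**
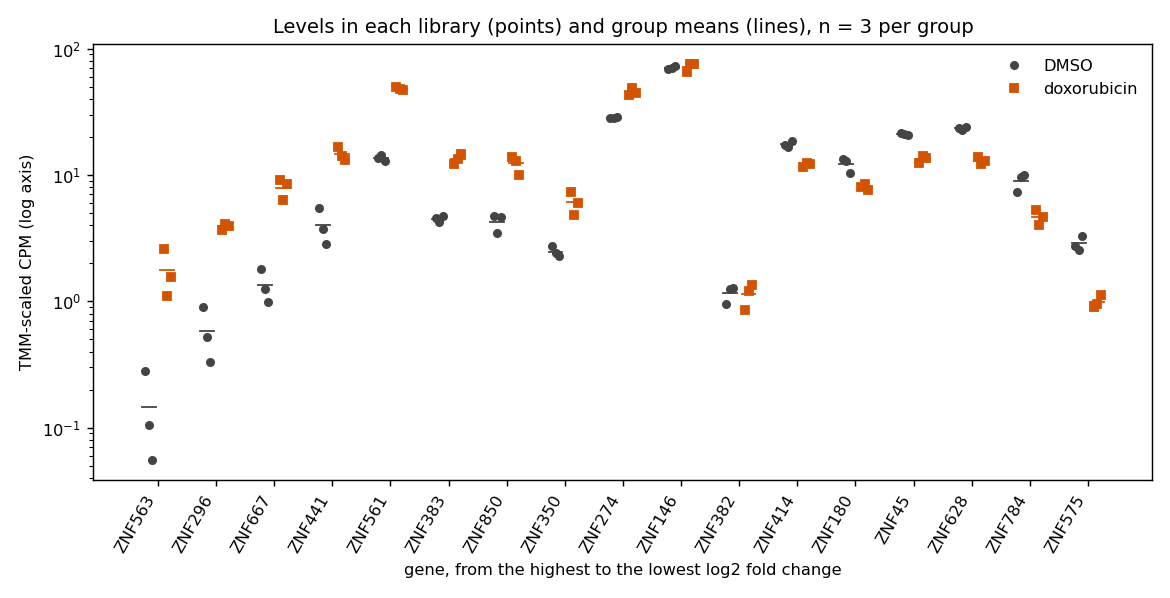
TMM-scaled CPM (log axis) of 17 genes of the set in each DMSO library (circles) and doxorubicin library (squares), with group means (lines, n = 3), ordered from the highest to the lowest log2 fold change. ZNF563 has the largest fold from the lowest level, ZNF561 rises from 13.6 to 48.2 CPM on average, and ZNF146 and ZNF382 overlap between groups.

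Of the 9 isolated genes, 7 were tested, 4 rose and 0 were called lower by edgeR, with 0 lower at an unadjusted p under 0.05 and by DESeq2. ZNF114 rose 2.20-fold, ZNF333 1.47-fold and ZNF526 1.34-fold. ZNF473 (ZFP100), a part of the U7 snRNP machinery that processes histone pre-mRNA, stood at 18.6, 17.8 and 21.0 CPM in DMSO and 23.9, 20.6 and 23.8 CPM in doxorubicin. Doxorubicin replicate 2 lay below the highest DMSO library, and the 1.19-fold increase (edgeR adjusted p = 0.038) was lost with DESeq2 (adjusted p = 0.13) and when either DMSO replicate 1 or 2 or doxorubicin replicate 1 or 3 was left out (adjusted p = 0.092 to 0.17).

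The fold change of a gene had little rank correlation with finger number, exon length, mean level or position. Across the 182 tested genes, Spearman's rho with the log2 fold change was -0.01 for the number of C2H2 fingers, 0.03 for exon length, -0.07 for mean level and 0.02 for position. These are descriptions across genes of the same libraries and not tests. Between a gene and the next tested gene of its cluster, rho was 0.02 over 166 pairs. Proteins of the set had 0 to 36 fingers by sequence pattern, with a median of 12. Genes with 9 or fewer fingers had 23 increases and 5 decreases among 51 tested, those with 10 to 14 had 40 and 3 among 81, and those with 15 or more had 19 and 2 among 50. Exons of another gene covered more than 10% of the exon bases of 52 of the 208 genes, and reads shared between near-identical copies could be split in ways the counting does not show.

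A list of 35 genes held TRIM28 and its partners together with more general genes of DNA methylation, chromatin remodelling and H3K9 methylation. It was chosen with earlier results of these data known. Of the 33 tested, 21 fell (63.6%), 7 rose (21.2%) and 5 were not called, beside 32.0% lower and 32.7% higher over all tested genes. The median of these 33 genes was -0.39 on the log2 scale, and the difference from other genes was not tested. TRIM28, the corepressor that binds the KRAB domain, went from 848.9 ± 31.9 to 580.1 ± 16.9 CPM (SD, n = 3) and fell 1.46-fold (edgeR adjusted p = 6.4e-07). SETDB1, the H3K9 methyltransferase that TRIM28 recruits, fell 1.23-fold (edgeR adjusted p = 0.0058). The HP1 proteins that read H3K9me3 also fell, CBX1 by 1.89-fold, CBX3 by 1.80-fold and CBX5 by 1.48-fold. Among the further decreases were those of UHRF1 (2.61-fold), CHD4 (2.31-fold), EHMT2 (1.96-fold), SUV39H1 (1.64-fold), DNMT1 (1.34-fold) and TASOR (1.31-fold), which act in DNA methylation, chromatin remodelling or H3K9 methylation. DNMT3B (1.87-fold), CHD3 (1.77-fold), MBD3 (1.73-fold) and ATF7IP (1.61-fold) also fell, and the rest of the 21 are not named here. The genes that rose were MTA2 (1.48-fold), TRIM24 (1.37-fold), DNMT3A (1.31-fold), MPHOSPH8 (1.20-fold), MORC2 (1.16-fold), MTA1 (1.13-fold) and ZNF274, which belongs to both lists. The part of these shifts in the ZNF changes was not tested.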

How the data were processed

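Poly(A) RNA libraries (TruSeq v2, unstranded per the labels) of 6 AC16 samples were analysed. The deposited values are raw exon counts for each gene, made by the authors with STAR, SAMtools and featureCounts (Subread) on GRCh38, per the submitters' processing notes; versions, settings and the handling of multimapped reads are not given in the sources used here. It has 0 columns of other samples. Symbols came from a name table (57717 of 58299 IDs) or GENCODE 29 (462), and 57438 positions were identical to GENCODE 29, which supplied gene types. The counts were fitted with edgeR 4.0.16 (R 4.3.3; filterByExpr defaults, TMM, robust quasi-likelihood F test, two-sided, Benjamini-Hochberg over 15358 genes, adjusted p under 0.05), all 6 libraries and no covariate. DESeq2 1.42.0, other scalings, filters, cluster gaps, a replicate block and leaving out each library were alternatives. Within groups, chi-square per degree of freedom was 2.82 to 9.39, so each library counted once. On simulated counts for 15280 genes, 71.2% of 1.5-fold, 94.0% of 2-fold and 100% of 4-fold changes were recovered, and 6 of 15081 unchanged genes were called. The simulation gave every gene the same dispersion and changed 66 or 67 genes per fold, drawn over all levels above a low-count cut. In the data 5017 genes were called higher and 4917 lower, and the rates were not worked out at the levels of this set. Same-numbered libraries had correlated deviations of 0.0515, -0.0231 and 0.027, and differently numbered ones -0.0721 to 0.0584. These values gave no sign of pairing by number but cannot exclude it, since they rest on deviations from means of only 3 libraries. KRAB and C2H2 fingers are sequence patterns in translated GENCODE 29 transcripts; promoter windows are RefSeq's.

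The members and lists were chosen with earlier results of these data known. The genes named were 12 with described functions, the 6 largest log2 increases and 6 largest decreases among called genes without overlap between groups and with a mean log2 CPM not below 0, the most changed called gene of each cluster at that level, the 2 with the highest CPM per kb, and the 2 nearest the borders. Other genes given by fold only were chosen after their values were seen.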

Additional observations from a re-analysis of the deposited data

How the results depend on the processing

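The counts of 82 genes higher and 10 lower became 63 and 6 with DESeq2, and between 77 and 86 higher and 8 and 10 lower with RLE, upper-quartile or total-count scaling, no filter, a filter of 1 CPM or the 50 most abundant genes left out. DESeq2 and the fit without a filter put the median log2 fold change of all genes at 0.40 and 0.37, above the set's 0.32 and 0.30, where the filtered fit gave -0.0013 and 0.33. Tested against a 2-fold change with edgeR's glmTreat, 9 genes were higher (14 at an unadjusted p under 0.05) and 0 lower (1 at an unadjusted p under 0.05); 6 were lower by DESeq2 without that bound. Leaving out 1 library gave 70 to 80 higher and 8 to 12 lower. Called in all 15 fits, glmTreat not among them, were 59 genes higher and 6 lower (ZNF414, ZNF575, ZNF45, ZNF180, ZNF628 and ZNF784). With a replicate block, 84 were higher and 10 lower, and whether the replicate numbers pair the libraries is not known.

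Cluster medians moved under several settings. For cluster 1 the median was 0.90 with DESeq2 and 0.88 without a filter. For cluster 7 it was 0.18 with the 1 CPM filter, -0.10 with DESeq2, -0.12 without a filter and -0.083 with a cluster gap of 0.5 Mb, and that of cluster 5 was -0.0039 with DESeq2 and -0.024 without a filter, so the sign of both depends on the setting. For cluster 9 it was 0.47 with the 1 CPM filter, 0.45 with total-count scaling and 0.55 with the gap of 0.5 Mb. Leaving out 1 library gave 0.22 to 0.61 for cluster 1, -0.077 to 0.12 for cluster 5, 0.075 to 0.22 for cluster 6, 0.010 to 0.14 for cluster 7 and 0.40 to 0.45 for cluster 9. The cause of these moves was not tested.

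Among the genes named by rule, those that changed sign were not called in any of those fits. The log2 fold change of ZNF382 was 0.016 with total-count scaling. Leaving out 1 library gave -0.060 to 0.15 for ZNF358, -0.0076 to 0.10 for ZNF146 and -0.15 to 0.14 for ZNF382, with the sign turned without DMSO replicate 2 for ZNF358, without doxorubicin replicate 2 for ZNF146, and without DMSO replicate 2 (0.026), DMSO replicate 3 (0.039) or doxorubicin replicate 1 for ZNF382. ZNF562 was also lost without a filter, without DMSO replicate 1 and without doxorubicin replicate 2 (adjusted p = 0.071 to 0.081), ZNF568 without doxorubicin replicate 3 (adjusted p = 0.053) and ZNF473 without a filter (adjusted p = 0.098). Depth limits genes at a few counts, such as ZNF563 and ZNF540.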
